A study of Mus musculus with 62 samples.

Results

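At 6 months of age, long-RNA libraries from the hippocampi of 3 APP NL-G-F mice (called APP here) were compared with those of 3 C57BL/6J mice (called WT here). These 6 of the 62 libraries of the series were chosen by their titles. Per the design text, plaques and symptoms appear at this age in APP mice. Both hippocampi of each mouse were pooled, and its RNA was divided into a short and a long fraction. Ribosomal RNA was removed from the long fraction, which was also fragmented. The APP NL-G-F allele is a knock-in at the mouse App gene with a humanised amyloid beta sequence and familial Alzheimer mutations, so it is driven by the gene's own promoter in all cells that express App. No other allele or agent is given for either group. The 5 libraries at 3 months (3 APP, 2 WT) and the 6 at 12 months (3 APP, 3 WT) were used as a reference.

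Amyloid plaques are known to draw microglia, the immune cells of the brain, which then express Trem2, Tyrobp, Clec7a, Itgax and Cst7, while surrounding astrocytes raise Gfap. RNA polymerase III makes short structured RNAs: 7SL of the signal recognition particle, 7SK, which holds back transcription elongation, the Y RNAs and, in rodent neurons, the dendritic BC1 RNA. Ribosomal proteins and the small subunits of the respiratory chain are encoded by short, abundant mRNAs.

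Each level below is a TPM value (a length-corrected share of the transcripts of a library) after scaling the libraries to each other by the median of ratios, and each change is APP minus WT on the log2(scaled TPM + 1) scale with its standard error. On this scale the changes of weakly expressed genes come out too small. Of 17249 genes tested outside the X and Y chromosomes, 247 (1.43%) passed an adjusted p of 0.05 in limma. Of these, 62 (0.359%) were higher in APP and 185 (1.07%) were lower. Leaving out 1 library gave 265 genes without APP replicate 1, 55 without APP replicate 2, 46 without APP replicate 3, 51 without WT replicate 1, 125 without WT replicate 2 and 224 without WT replicate 3. Of the 247 genes, 24 lower ones and 5 higher ones (Gm15446, mt-Tr, Irs2, Tmem267 and Ccnjl) passed in all 6 of these fits. The share of lower genes among those called was 74.9%, but 58.5% after scaling to total protein-coding TPM and 54% after quantile normalisation. In the TPM values as deposited, without scaling, all genes together had a median change of 0.6, and 0.7% of the called genes were lower.

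The libraries differed in more than genotype. Protein-coding genes took 40.41%, 36.24% and 50.99% of the TPM in APP and 26.65%, 26.87% and 28.48% in WT. The two-sided exact permutation p was 0.1, the smallest possible for 3 against 3. The median-of-ratios scaling factors were 1.118 to 1.459 in APP and 0.688 to 0.836 in WT. The WT libraries at 6 months carried Y-linked transcripts (Ddx3y at 24.5 to 28.2) and almost no Xist (0.276 to 0.524), whereas the APP libraries had Xist at 116 to 137 and Ddx3y at 0 to 0.0583. Sex is not given in the labels, and at 6 months it cannot be told apart from genotype. The same contrast held at 12 months, while all 5 libraries at 3 months were high in Xist. Markers of tissue next to the hippocampus were uneven among the 3 APP libraries. Replicate 1 had the highest value of the 6 for 6 of 10 tested thalamus and cortex genes. Replicate 2 had the lowest value for 12 of 12 choroid plexus genes, and replicate 3 the highest for 3 of 4 pituitary genes. The matching shares over all tested genes were not counted. The summed level of 19 hippocampal subfield genes was 737 to 826 in APP and 622 to 743 in WT. The files give no read counts, so depth is unknown, but the ratio of coverage to FPKM, which follows depth, was 1.68 to 1.94 in APP and 1.42 to 1.96 in WT.

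RNA polymerase III transcripts were among the steepest falls in APP. Of 9 tested, 7 were lower (Rny3, Rny1, Bc1, Rn7sk, Rn7s1, Rn7s2 and Rmrp), against 1.07% of all tested genes. The others, Rpph1 and Vaultrc5, also had negative changes. The median change over the 9 was -2.07, against 0.00287 over all genes. These 3 short genes are shown because their ends carry runs of T, the signal at which the polymerase stops. Each is read from GRCm38 with 10 bases after its annotated end, and capitals mark the last run of 4 or more T. In Bc1 a longer run of T stands just before the marked one. Which run ends the RNA was not tested. With those 10 bases, the stretch shown for Rny1 (Y1 RNA) is chr6:47788059-47788180 on the minus strand. That for Rny3 (Y3 RNA) is chr6:47781624-47781735 and that for Bc1 chr7:144914470-144914647, both on the plus strand.
Rny1: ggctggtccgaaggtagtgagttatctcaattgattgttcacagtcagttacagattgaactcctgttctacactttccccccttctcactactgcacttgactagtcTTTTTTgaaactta
Rny3: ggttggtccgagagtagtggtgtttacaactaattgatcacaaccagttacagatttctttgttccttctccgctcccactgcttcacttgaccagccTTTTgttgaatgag
Bc1: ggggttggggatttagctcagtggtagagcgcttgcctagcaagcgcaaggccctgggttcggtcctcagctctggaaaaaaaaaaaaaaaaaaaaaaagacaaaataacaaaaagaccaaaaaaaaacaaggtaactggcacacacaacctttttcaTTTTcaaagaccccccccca
The letters TTTT, searched on the gene's own strand in the last 20 bases and the next 10, were found in 9 of 9 of these genes and in 24.2% of all tested genes.

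Rn7sk (7SK RNA, chr9:78175303-78175633) measured 3559, 2949 and 1362 in APP replicates 1, 2 and 3, and 14350, 13524 and 13946 in the WT replicates. Every APP value lay below, and every WT value above, the 5221 to 12001 of the 11 libraries at other ages. The change was -2.52 ± 0.32 (adjusted p = 0.0034), and Rn7sk passed in all 6 fits that left out 1 library. Rny1 measured 27.5, 17.2 and 5.15 in APP and 160, 129 and 124 in WT. Its change was -3.23 ± 0.48 (adjusted p = 0.0069), and the APP values again lay below those of all other ages (45.4 to 449). Rny3 fell by 3.45 ± 0.65 (adjusted p = 0.024), with APP at 63.2, 19.4 and 7.25 and WT at 96.5, 268 and 540. This gene kept its call in only 2 of the 6 fits.

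Bc1 was 127, 90.8 and 31.0 in APP and 485, 271 and 357 in WT, a change of -2.33 ± 0.42 (adjusted p = 0.019). Rmrp, the RNA of the ribonuclease that processes mitochondrial and ribosomal precursors, was 1394, 1031 and 546 against 3633, 2374 and 2181, a change of -1.53 ± 0.32 (adjusted p = 0.035). The groups do not overlap for either gene, as in 10% of all tested genes with APP lower. The 7SL genes Rn7s1 (-2.07 ± 0.46, adjusted p = 0.038) and Rn7s2 (-1.84 ± 0.43, adjusted p = 0.0498) are near-identical copies that can share reads. Together they took 11.9%, 7.09% and 3.87% of the TPM in APP and 11.1%, 19.3% and 20.5% in WT, so the groups overlap on this measure (exact permutation p = 0.2, two-sided, where 3 against 3 cannot go below 0.1). APP replicate 3 was lowest for all 7 called members. The number called fell to 2 without that library, to 3 without APP replicate 2, WT replicate 1 or WT replicate 2, and to 4 without WT replicate 3.

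**Figure D1:**
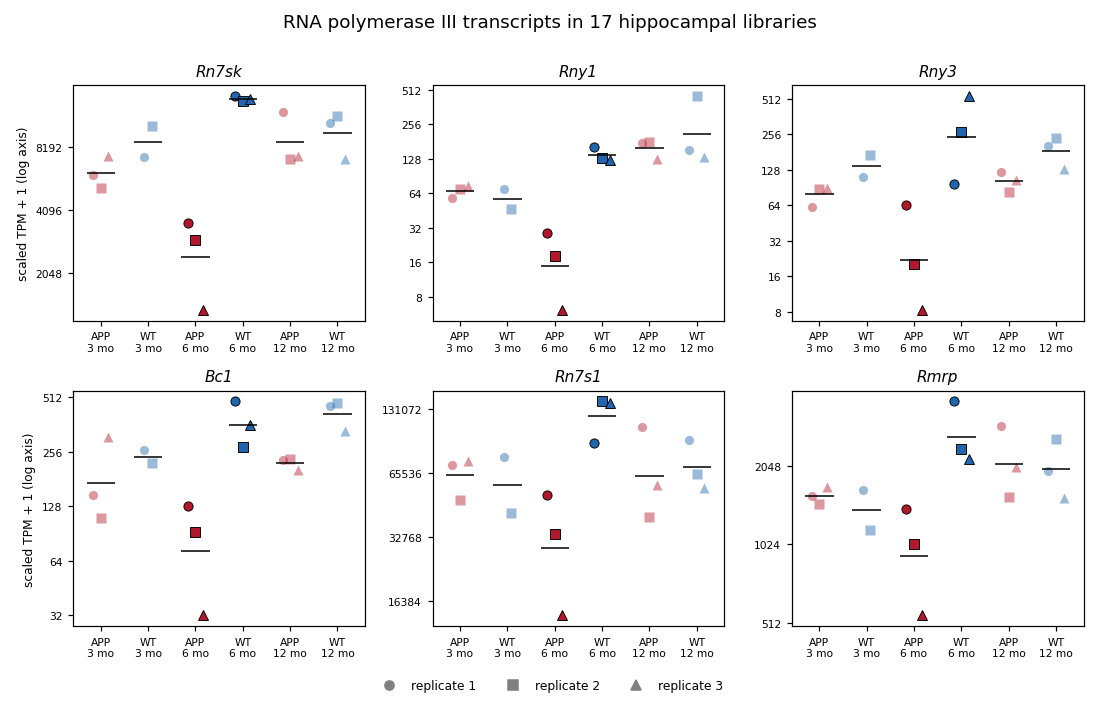
Scaled TPM + 1 (log axis) of 6 RNA polymerase III transcripts in each of 17 long-RNA libraries, by genotype and age; bars are means of the log values, symbols give the replicate, and 6-month points are outlined. For Rn7sk the 3 APP libraries at 6 months sit between 1362 and 3559 and the 3 WT libraries between 13524 and 14350.

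Some other short noncoding RNAs were also called. Rnu5g, a U5 spliceosomal RNA gene, was 2.23, 0.624 and 0 in APP and 11.4, 11.6 and 37.7 in WT, and its change was -3.39 ± 0.44 (adjusted p = 0.0034). None of 30 listed H/ACA small nucleolar RNAs, the guides of pseudouridylation, was called in limma (9 lower at an unadjusted p below 0.05, median -0.78). None of 8 listed small Cajal body RNAs was called either (3 lower at that p, median -0.8). Gm22442, a small Cajal body RNA by annotated biotype but outside that list, was called lower. The 49 tested C/D box RNAs, which guide ribose methylation, had a median of -0.03 and no call (1 higher and 7 lower at that p). By annotated biotype, 8 of 68 miscellaneous RNAs (11.8%) were lower, against 1.07% of all tested genes. Of these 8, 5 are the Y, 7SK and 7SL genes counted above. Of 364 small nucleolar RNAs 8 (2.2%) were lower and 0 higher. All 8 lie outside the H/ACA and C/D lists above, and their class was not assigned. Of 160 small nuclear RNAs 6 (3.75%) were lower, Rnu5g among them, and 1 was higher (Gm22500, 1.38).

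Among 12516 tested protein-coding genes, 93 (0.743%) were lower in APP, and some of these encode parts of the ribosome and of mitochondrial respiration. Cytosolic ribosomal proteins had 8 of 75 tested members lower and 0 higher, 73 of 75 changes were negative, and the median was -0.62. Their median exon length was 1781 bases. Rps21 measured 109, 98.7 and 75.5 in APP and 285, 214 and 162 in WT, with a change of -1.19 ± 0.20 (adjusted p = 0.014). Rps27 was 6.18, 4.36 and 5.71 in APP and 15.4, 15.3 and 10.0 in WT, with a change of -1.17 ± 0.17 (adjusted p = 0.0064). All 3 APP values of Rps27 were below the lowest of the 11 libraries at other ages (7.33). The remaining called members named here, Rps27l, Rpl19, Rplp1 and Rps15a, changed by -1.03 to -0.85. The family has many processed pseudogenes that can share its reads, and 59 of 1362 tested processed pseudogenes were themselves lower and 0 higher. Without APP replicate 3, 1 ribosomal protein gene was called, 2 without APP replicate 2 or WT replicate 1 and 4 without WT replicate 2.

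The respiratory chain list had 4 of 26 tested nuclear-encoded members lower (Uqcrq and Sdhb of complexes III and II, Cox6c of complex IV and Atp5j2 of ATP synthase) and 25 of 26 changes negative, with a median of -0.58. Sdhb, the iron-sulphur subunit of succinate dehydrogenase, was 47.3, 39.4 and 39.7 in APP and 75.7, 65.6 and 74.1 in WT, with a change of -0.76 ± 0.11 (adjusted p = 0.0069). It kept its call in all 6 fits, as did Atp5h of ATP synthase, at 80.0, 73.9 and 82.6 against 207, 152 and 141 (-1.05 ± 0.16, adjusted p = 0.0082). In both genes every APP value lay below every WT value, as in 10% of all tested genes. A wider list of the family, added after the called genes had been seen, had 17 of 83 members lower and 0 higher. Of all protein-coding genes 0.743% were lower. Further falls were found for Uqcr11 and Usmg5, small subunits of complex III and ATP synthase, for the outer-membrane import subunit Tomm7 and for 2410015M20Rik (-1.12 to -0.99). The 13 mitochondrially encoded mRNAs were all negative, none was called (4 at an unadjusted p below 0.05), and their median was -0.44. Of the 2 mitochondrial rRNAs 0 were called (2 lower at that p), with a median of -1.

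In further families, also added after the calls were seen, the called members were all lower. They were 5 of 78 mitochondrial ribosomal proteins (Mrpl20, Mrpl22, Mrps33, Mrps21 and Mrpl12), 2 of 36 proteasome subunits (Psmb7 and Psma4), 3 of 12 RNA polymerase II subunits (Polr2e, Polr2h and Polr2g) and 4 of 23 Sm and Lsm proteins of RNA splicing and decay (Lsm3, Snrpe, Snrpb2 and Snrpd2). Of all tested protein-coding genes 0.743% were lower. Families picked after the calls hold called genes by choice, so these counts are a description. Lsm3 was 6.15, 7.96 and 7.40 in APP and 19.4, 13.4 and 14.5 in WT (-1.03 ± 0.18, adjusted p = 0.014). Gpx4, the selenoenzyme that reduces lipid peroxides, was 29.4, 33.4 and 26.4 against 68.7, 64.6 and 60.7 (-1.10 ± 0.18, adjusted p = 0.011). Cops9, a subunit of the COP9 signalosome, was 46.1, 35.3 and 43.3 against 86.7, 87.0 and 97.5 (-1.11 ± 0.18, adjusted p = 0.011). In each of these 3 genes every APP value lay below every WT value, as in 10% of all tested genes. Hist3h2ba was the 1 of 60 tested histone genes called, at 12.5, 11.2 and 10.6 against 28.2, 17.7 and 24.4, and the median over the histones was -0.49. In glycolysis, 1 of 16 genes was called: Tpi1, triosephosphate isomerase (-0.51 ± 0.11, adjusted p = 0.042), whose change is 0.21 without scaling.

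**Figure D2:**
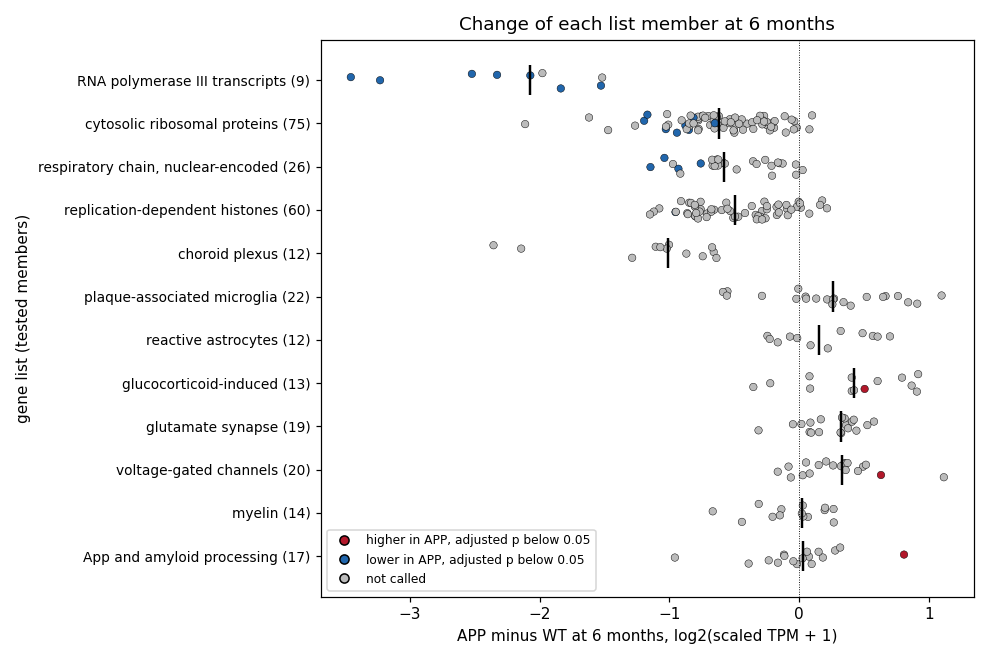
Change at 6 months (APP minus WT, log2 of scaled TPM + 1) of every tested member of 12 gene lists; each point is a gene, red and blue points passed an adjusted p of 0.05 and the black bars are list medians. The RNA polymerase III median is -2.07, the ribosomal protein median -0.62 and the respiratory chain median -0.58.

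The genes lower in APP also had short total exon lengths. This length counts each annotated exon base of a gene once over all its transcripts, so it can exceed the length of its mRNA. Protein-coding genes with a total exon length of 300 to 500 bases had a median change of -0.59, those of 500 to 1000 bases -0.47 and those of 1000 to 2000 bases -0.21. Above 8000 bases the median was 0.09. The 12 tested coding genes under 300 bases did not follow this order, with a median of -0.17. At 3 months the classes of 300 to 500, 500 to 1000, 1000 to 2000 and over 8000 bases had medians of 0.26, 0.09, 0.07 and 0.01, and at 12 months of -0.05, 0, 0.02 and 0. The median exon length was 641 bases for all genes lower in APP, 6145.5 for genes higher in APP and 3563 for genes not called. Coding genes under 1000 bases made up 2.31%, 1.99% and 1.86% of nuclear coding TPM in APP and 3.49%, 2.91% and 2.63% in WT, and 2.18% to 2.96% at the other ages (exact permutation p = 0.1, the smallest possible). Once the trend with exon length was removed from each library, a step chosen after seeing the data, 79 genes were called, 21 higher and 58 lower. Under that step the medians relative to all genes were -1.87 for RNA polymerase III transcripts, -0.54 for ribosomal proteins and -0.39 for the respiratory chain. The median total exon length of the ribosomal protein genes was 1781 bases. Where this length exceeds that of the mRNA, the step need not remove a trend with mRNA length, which was not tested. The labels describe a size selection of RNA for the short libraries, and the part of such a step in these values was not tested.

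**Figure D3:**
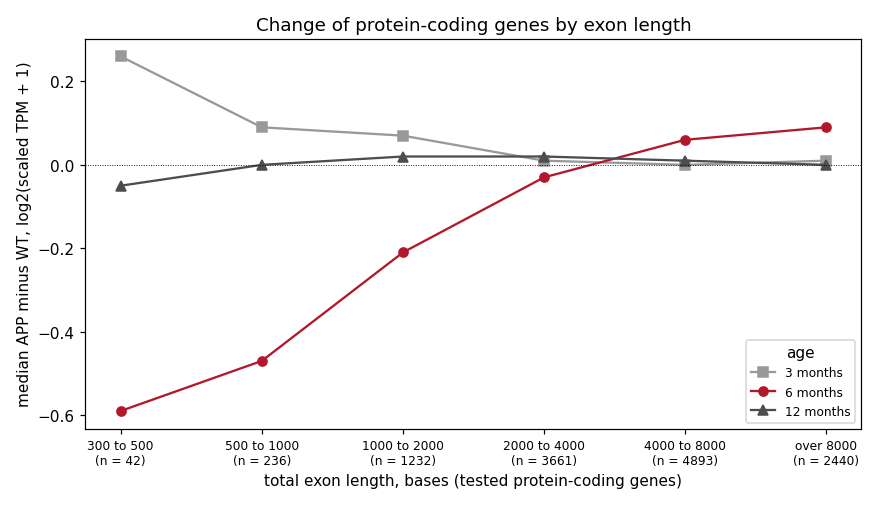
Median change of tested protein-coding genes (APP minus WT, log2 of scaled TPM + 1) by total exon length in bases, at 3, 6 and 12 months. The 12 genes under 300 bases are not plotted; over the classes shown, the 6-month medians run from -0.59 at 300 to 500 bases to 0.09 above 8000 bases, while those at 12 months stay between -0.05 and 0.02.

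By total exon length the genes higher in APP were mostly long, and no list but that of mitochondrial tRNAs held more than 1 of them. Of all tested genes 0.359% were higher. Ide, insulin-degrading enzyme, a protease that also cleaves amyloid beta, was the 1 of 17 tested genes of App and its processing that was called. It measured 29.6, 32.2 and 35.5 in APP and 19.2, 16.2 and 18.9 in WT, a change of 0.81 ± 0.17 (adjusted p = 0.035), and passed in 1 of the 6 fits that left out a library. Ide lies at chr19:37268743-37337852, 256 kb from another gene called higher, Btaf1, named here for its position. App itself was 242, 207 and 242 in APP and 278, 201 and 225 in WT, so the groups overlap (-0.02 ± 0.20; 0.70 without scaling, where the median of all genes is 0.6). Hsf1, the heat shock factor, did not pass (0.18 ± 0.15, adjusted p = 0.60), and neither did any of 16 heat shock genes (2 higher and 1 lower at an unadjusted p below 0.05).

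Irs2, an adaptor of insulin and IGF-1 receptors, was 27.6, 22.8 and 26.4 in APP and 15.4, 12.8 and 15.9 in WT (0.76 ± 0.12, adjusted p = 0.0069). Its WT values lay below all 11 other libraries (16.997 to 29.116), and the call held in all 6 fits. Ccnjl, a cyclin-J-like gene, was 3.11, 4.38 and 3.20 against 1.35, 1.08 and 0.821 (1.13 ± 0.18, adjusted p = 0.0086), and also held in all 6. Hif3a, a hypoxia-inducible factor subunit, was 3.23, 4.50 and 1.85 against 0.655, 0.526 and 0.719 (1.31 ± 0.26, adjusted p = 0.029), a call kept in 2 of the 6 fits. For all 3 genes APP was above WT in every library, as in 11.2% of all tested genes. Eif1, a translation initiation factor with pseudogene copies that can share reads, was 151, 114 and 175 against 59.2, 59.0 and 61.3 (1.26 ± 0.24, adjusted p = 0.023). Its call was kept in 3 of the 6 fits. Aldh1l2, a mitochondrial folate enzyme, Cables1, Sec24a, a coat protein of vesicles leaving the endoplasmic reticulum, and Doc2b, a calcium sensor of neurotransmitter release, rose by 0.69 to 0.86.

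Neuronal lists held few calls, and the voltage-gated channel and glutamate synapse genes mostly had positive changes. C1ql2, a synaptic organiser of dentate granule cells and mossy fibres, was 33.7, 25.4 and 26.3 in APP and 12.0, 16.3 and 12.0 in WT (1.03 ± 0.21, adjusted p = 0.030), the 1 call among 19 subfield genes. Cacna1c, the pore subunit of an L-type calcium channel, was 31.5, 27.6 and 26.4 against 17.7, 18.5 and 17.8 (0.63 ± 0.15, adjusted p = 0.0498), the 1 call among 20 voltage-gated channel genes, 17 of which had positive changes. Ryr1, an intracellular calcium release channel, rose by 0.88 ± 0.20 (adjusted p = 0.042). None of these 3 kept its call in more than 1 of the 6 fits. Of all tested genes 0.359% were called higher. None of 19 glutamate synapse genes was called (4 higher at an unadjusted p below 0.05). Their changes were positive in 17 of 19 with a median of 0.32, and the median exon length of the list was 9189 bases. Grin2c, an NMDA receptor subunit gene outside this list, was called higher, a call kept in 0 of the 6 fits. It is named here after the calls were seen. Tnr, an extracellular matrix protein of perineuronal nets, comes from the list of oligodendrocyte precursors, where it was the 1 call among 12 tested genes. It was 51.9, 50.3 and 48.3 against 35.6, 35.1 and 36.5 (0.48 ± 0.09, adjusted p = 0.026), a call kept in 1 of the 6 fits. No gene was called among 18 of GABA synapses and interneurons, 17 of synaptic vesicles, 14 of myelin or 17 immediate-early genes, where 2, 3, 2 and 3 had an unadjusted p below 0.05.

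Among 13 tested glucocorticoid-induced genes, Errfi1, an inhibitor of EGF receptor signalling, was called, at 17.9, 17.8 and 17.4 in APP and 11.5, 11.9 and 13.3 in WT (0.50 ± 0.09, adjusted p = 0.017). In 7 of the 13 all APP values lay above all WT values, against 11.2% of all tested genes. These included Fkbp5, a cochaperone of the glucocorticoid receptor (0.61, adjusted p = 0.075), and Klf9, a transcription factor (0.42, adjusted p = 0.072), neither of which passed. The metallothioneins Mt1 and Mt2 of the same list had changes of -0.35 and -0.22.

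Plaque-associated glial genes were high in 1 of the 3 APP libraries. None of 22 tested genes of plaque-associated microglia was called by limma at 6 months (3 higher and 1 lower at an unadjusted p below 0.05). Their median change was 0.26, or -0.18 relative to all genes without APP replicate 2. Cst7, an inhibitor of lysosomal proteases, was 0.658, 8.90 and 0 in APP and 0.897, 0.522 and 0.422 in WT. Clec7a and Itgax, a beta-glucan receptor and an integrin chosen after their values were seen, were 0.246, 7.86 and 0.203 and 0, 4.77 and 0.0557 in APP. In WT, Clec7a was at most 0.355 and Itgax at most 0.0618. APP replicate 2 was thus the only library at 6 months with levels above 1 of these 3 genes, while replicates 1 and 3 lay within or below the WT range. App levels overlapped between the groups, so they do not check the genotype label of any single library. At 12 months 15 of the 22 genes were called higher, against 0.4% of all tested genes. In the APP libraries of that age Cst7 was 25.5 to 36.2, Clec7a 8.86 to 16.2 and Itgax 6.94 to 8.86.

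The same library was highest for most microglial and immune genes, but not for all glial lists. It had the highest of the 6 values for 17 of 22 plaque-associated genes, 8 of 11 homeostatic microglial genes, 8 of 9 complement genes, 9 of 11 antigen presentation genes and 7 of 12 reactive astrocyte genes. It was also highest for 9 of 13 interferon-stimulated genes and 7 of 11 endothelial and mural genes, but for only 3 of 15 genes of astrocyte transport and homeostasis, 1 of 14 of myelin and 1 of 12 of oligodendrocyte precursors. How often each library is highest over all tested genes was not counted. Other libraries led other lists: WT replicate 1 was highest for 56 of 75 ribosomal protein genes. For the other 3 of the 11 homeostatic genes WT replicate 1 was highest. Among these 3 was P2ry12, at 14.9, 20.6 and 16.4 in APP and 28.5, 24.1 and 24.4 in WT. Trem2, a lipid receptor of microglia, was 4.27, 16.7 and 2.01 in APP and 3.52, 4.40 and 2.899 in WT, and its adaptor Tyrobp 8.43, 24.5 and 7.67 against 10.4, 10.5 and 8.36. Gfap, the intermediate filament of astrocytes, was 149, 357 and 119 in APP and 134, 115 and 149 in WT. The complement gene C4b was 14.1, 38.0 and 14.0 against 9.94, 12.5 and 9.56. None of the 4 passed (adjusted p of 0.18 to 0.74), and none of the complement, antigen presentation or reactive astrocyte genes did (1, 2 and 2 at an unadjusted p below 0.05). Apoe, a lipid carrier of astrocytes and microglia, was 328, 268 and 149 in APP and 632, 327 and 203 in WT, so it was not raised in replicate 2. In bulk tissue, more cells of a type and more RNA per cell cannot be told apart.

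APP replicate 2 also had the least choroid plexus RNA, the tissue that makes cerebrospinal fluid. Ttr, its transthyretin, was 850, 27.4 and 525 in APP and 1075, 1267 and 1244 in WT, and the 11 other libraries ranged from 399 to 2274. The 12 choroid plexus genes had a median change of -1.01 with no call (4 at an unadjusted p below 0.05), and Ttr had a change of -2.35 ± 0.97 (adjusted p = 0.24), or -0.83 without replicate 2. Pituitary transcripts were highest in APP replicate 3: Prl, prolactin, was 7.84, 2.33 and 76.2 in APP and 0, 0 and 0.110 in WT, and Gh, growth hormone, 1.70, 0.311 and 18.2 against 0 in all 3 WT libraries. The part of these tissue differences in the results above was not tested. Of the blood genes, Hbb-bs, a beta globin, was lower in APP (-0.90 ± 0.19, adjusted p = 0.037), at 52.3, 34.1 and 42.0 against 82.8, 89.6 and 67.3.

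**Figure D4:**
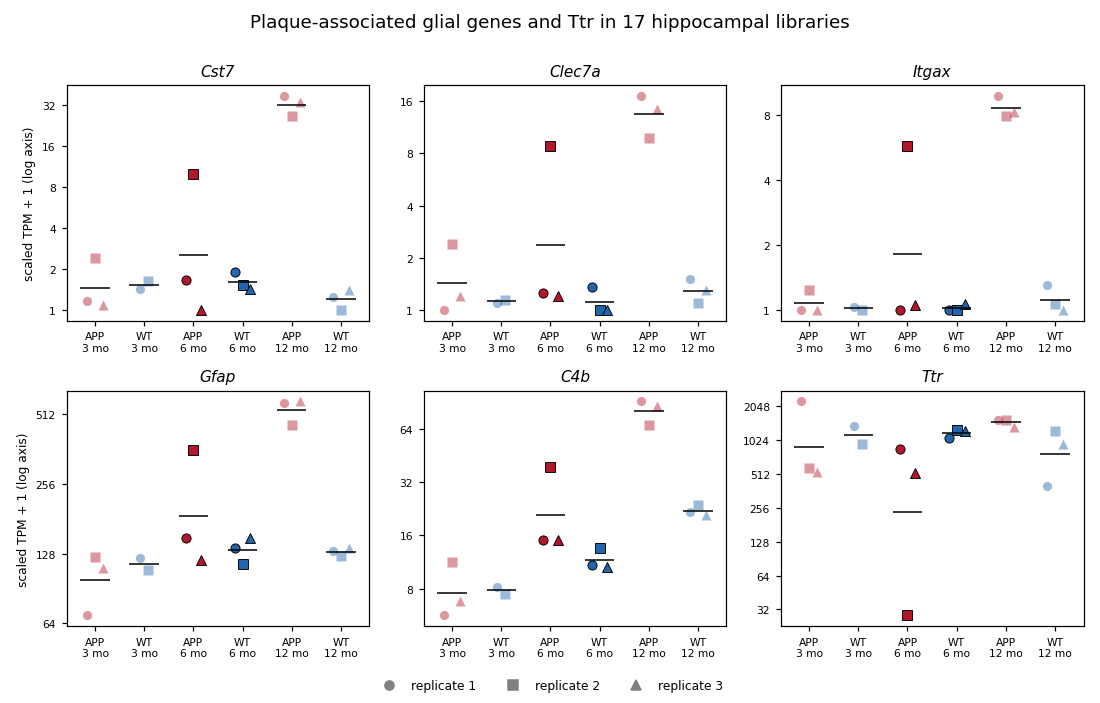
Scaled TPM + 1 (log axis) of 5 plaque-associated glial genes and of Ttr in each of 17 long-RNA libraries, by genotype and age; bars are means of the log values and symbols give the replicate. APP replicate 2 at 6 months (square) lies between the other 6-month libraries and the APP libraries at 12 months for the glial genes (Gfap 357 against 115 to 149 in the other 5), and is lowest for Ttr (27.4).

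A small group of called genes divided the libraries by a line other than genotype. Their WT values at 6 months were shared by WT replicates 1 and 2 at 12 months, while WT replicate 3 at 12 months and both WT libraries at 3 months resembled APP. Of the 247 called genes, 18 had these 5 WT libraries all below (11 genes) or all above (7 genes) the other 12 libraries, as did 79 of the 17249 tested genes. This set was picked after its values were seen, and is a description. For several of the 18 genes the gap was narrow. Chchd2 was at least 133 in the 5 libraries and at most 132 in the other 12. Igf1r was at most 12.5 in the 5 and at least 12.7 in the other 12. Wider gaps were found for 2 mitochondrial transfer RNAs of the set, mt-Tg for glycine and mt-Tr for arginine, which flank mt-Nd3. The tRNA for proline, mt-Tp, was the 1 lower call among the 22 tested mitochondrial tRNAs and did not follow this line. Their GRCm38 sequences are given on their own strands, MT:9391-9458 and MT:9808-9875 (plus) and MT:15356-15422 (minus), with the anticodon in capitals to show which amino acid each carries.
mt-Tg: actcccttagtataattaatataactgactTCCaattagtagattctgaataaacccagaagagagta
mt-Tr: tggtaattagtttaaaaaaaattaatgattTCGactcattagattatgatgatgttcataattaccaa
mt-Tp: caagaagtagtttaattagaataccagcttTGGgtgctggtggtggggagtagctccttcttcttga

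The level of mt-Tg was 201, 193 and 221 in APP and 17.8, 27.1 and 23.9 in WT, a change of 3.12 ± 0.58 (adjusted p = 0.023). In WT at 12 months it was 30.3, 21.9 and 229, and in the other 8 libraries 163 to 218. For mt-Tr the APP values were 319, 299 and 267, the WT values 55.0, 55.5 and 33.2 and the change 2.63 ± 0.38 (adjusted p = 0.0060), with 68.6, 63.8 and 224 in WT at 12 months. Values of either gene thus fell into a low and a high range with nothing between them. The coding gene between them, mt-Nd3, did not pass and moved the other way (735, 708 and 785 against 1654, 1139 and 1189; -0.82 ± 0.25, adjusted p = 0.11). For mt-Tp, APP was 161, 155 and 164 and WT 436, 267 and 379 (-1.14 ± 0.21, adjusted p = 0.022).

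The same line ran through nuclear genes. Gm15446 (chr5:109923400-109943936) was 7.58, 14.2 and 10.6 in APP and 0.451, 0.736 and 0.725 in WT (2.82 ± 0.44, adjusted p = 0.0086), with 0.821, 0.901 and 8.32 in WT at 12 months. Gm13301 and Gm10600, 5 kb apart on chromosome 4, followed it, with changes of 2.02 ± 0.41 (adjusted p = 0.029) and 1.56 ± 0.34 (adjusted p = 0.037) and WT levels at 6 months of 0 to 0.135. Nnt, the mitochondrial transhydrogenase, went the other way: 7.27, 4.32 and 2.85 in APP and 14.0, 14.9 and 12.0 in WT (-1.40 ± 0.28, adjusted p = 0.029). Its values in WT at 12 months were 14.0, 14.0 and 7.15. The gene is known to carry a deletion in C57BL/6J mice, the strain the labels give for WT, yet these WT libraries had the higher levels. The labels name no colony or supplier for the mice, and a difference in origin between the groups cannot be told apart from genotype at 6 months. The neighbouring gene Tmem267, 79 kb away on chromosome 13, was higher in APP, at 24.7, 13.6 and 23.1 against 5.22, 5.03 and 8.27 (1.57 ± 0.24, adjusted p = 0.0069), but low in all 3 WT libraries at 12 months (5.83 to 7.79). Wdfy1, a gene named here after its values were seen, was 9.96, 8.31 and 8.47 in APP and 14.999, 19.997 and 18.435 in WT (-0.92 ± 0.19, adjusted p = 0.030). Genotype and this division of the libraries cannot be told apart within the 6-month groups.

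Commd5 and Gm42715 had patterns of their own. Commd5, of the COMMD family of endosomal sorting proteins, was 0.950, 0.922 and 1.06 in APP and 8.26, 8.01 and 6.74 in WT (-2.13 ± 0.33, adjusted p = 0.0086). Outside 6 months it was low in 1 library, APP replicate 3 at 3 months (1.27), and 4.45 to 8.44 in the other 10, the APP libraries at 12 months among them. Gm42715 was 17.2, 4.64 and 4.90 in APP and 0.234, 0.426 and 0.269 in WT (2.69 ± 0.61, adjusted p = 0.042), a call that no fit without 1 library kept. At other ages it was 4.47 to 7.18 in 3 of the 5 libraries at 3 months and at most 0.423 in the remaining 8.

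**Figure D5:**
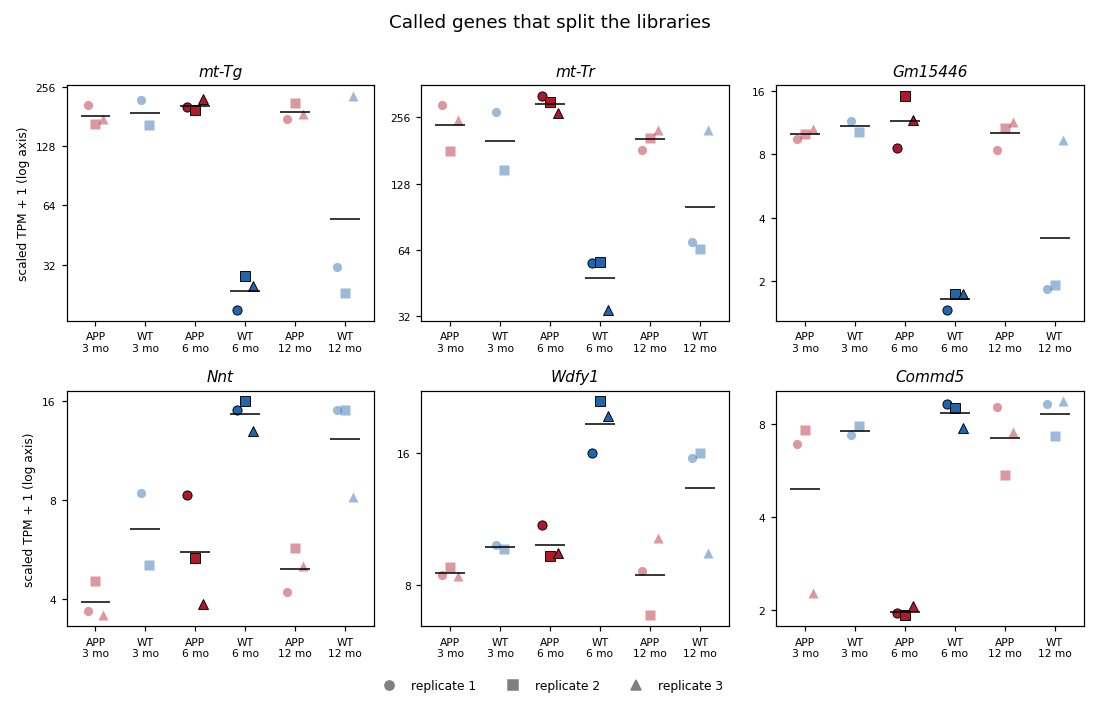
Scaled TPM + 1 (log axis) of 6 called genes in each of 17 long-RNA libraries, by genotype and age; bars are means of the log values and symbols give the replicate. For mt-Tg the 3 WT libraries at 6 months and WT replicates 1 and 2 at 12 months lie between 17.8 and 30.3 and the other 12 libraries between 163 and 229, while Commd5 is low in the 3 APP libraries at 6 months and in APP replicate 3 at 3 months.

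The 6-month calls were compared with the contrasts at the other ages, which share no library with them. At 3 months 56 genes (0.325%) were called, 24 higher (0.139%) and 32 lower (0.186%), and at 12 months 69 (0.4%), all higher. None of the 62 higher genes was called higher at 3 or 12 months, and none of the 185 lower genes was called lower there. In the opposite direction, 2 of the 62 and 1 of the 185 were called at 3 months, and 0 at 12 months. The sign was the same as at 6 months for 16 of the 62 and 74 of the 185 at 3 months, and for 47 and 119 at 12 months. In the limma test of the difference itself, the 6-month change differed from the 3-month change for 261 genes (1.51%), upward for 154 (0.893%) and downward for 107 (0.62%), among them 27 of the 62 and 58 of the 185. The difference takes in the 6-month libraries that picked the 62 and the 185, so the picking itself favours these overlaps. It differed from the 12-month change for 4 genes (0.0232%), all within the 185: Rps27, the pseudogenes Gm11878 and Gm16418 and the small nucleolar RNA Gm24616. The count of 261 dropped to 76 without APP replicate 2, 75 without APP replicate 3 and 39 without WT replicate 1, and the count of 4 became 10, 42 and 0 when APP replicate 1, 2 or 3 was left out. Of the higher genes, the median change was 0.63 at 6 months, -0.14 at 3 months and 0.12 at 12 months. Of the lower genes, it was -0.90 at 6 months, 0.08 at 3 months and -0.06 at 12 months. Both sets were picked by their 6-month change, which inflates their 6-month medians beside those at the other ages. For 134 of the 185 the APP mean at 6 months was further from the mean of the 11 other libraries than the WT mean was, and for 51 the WT mean was further. The 62 higher genes split into 30 and 32.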

How the data were processed

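Long-RNA libraries of 17 mice, each from both hippocampi, were used. Per the file headers, the authors deposited TPM, FPKM and coverage values per gene for each library, and the submitters' processing notes list FastQC, cutadapt 1.18, BWA 0.7.17, HISAT2 2.1.0, bedtools 2.26.0, StringTie 1.3.4d and builds mm10 and GRCm38, without roles. Gene coordinates and biotypes were those of GENCODE on GRCm38. The labels' library kit does not mark strand, so overlapping transcripts of opposite strands cannot be told apart.

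The deposited TPM were summed per gene, kept at a mean of at least 1 (17840 genes), scaled by the median of ratios and, without 591 X and Y genes, fitted as log2(TPM + 1) in 1 limma model of 6 groups (limma 3.58.1, R 4.3.3, trended and robust variance, Benjamini-Hochberg adjustment). The deposited FPKM and coverage (signal) served only for relative depth. The fit was tested on simulated data. Short-RNA and HT-22 libraries were not analysed here.

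Named genes were the 15 largest rises and 15 largest falls among called coding genes with groups apart, the 5 largest each way among other biotypes, up to 6 called and 4 abundant uncalled members per list, and App, Hsf1, Gfap, C4b, Cst7, Trem2, Tyrobp and Nnt. Members and lists were chosen with earlier results of these data known. Alternatives changed the scaling, pseudocount, filter, variance model, replicate block and each 6-month library in turn. Replicates are separate mice, per the design text.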

Additional observations from a re-analysis of the deposited data

Results flagged for a closer look

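The genes below were singled out because their change at 6 months differed from their change at 3 or 12 months by the limma test of the difference itself (adjusted p below 0.05 over all genes). The value after each name is the 6-month change minus the 3-month change on the log2(scaled TPM + 1) scale. These genes had also been called at 6 months. The difference takes in the same 6-month libraries, so that choice favours a difference. More positive at 6 months were Gm15446 (2.93), Gm22500 (1.98), Gm28172 (2.17), Tmem267 (1.93), Hif3a (2.31), Ccnjl (2.16), C1ql2 (1.95), Ryr1 (1.34), Irs2 (0.77), Sec24a (0.83), Doc2b (1.59), Errfi1 (0.77), Tnr (0.62). Hif3a, Ccnjl, C1ql2 and Doc2b had negative 3-month changes of -1.0, -1.03, -0.91 and -0.90, and Gm28172, Gm22500 and Ryr1 of -0.81, -0.60 and -0.46. More negative at 6 months were Rny1 (-3.46), Rn7sk (-2.03), Rps21 (-1.94), Rps27 (-1.43), Rpl19 (-1.25), Atp5h (-1.42), Atp5j2 (-1.36), Sdhb (-0.94), Tomm7 (-1.40), Cops9 (-1.18), Gpx4 (-1.23), Hbb-bs (-2.03). Hbb-bs and Rps21 had positive 3-month changes of 1.13 and 0.75. Rps27 also differed from its 12-month change, by -1.90, with 0.73 at 12 months against -1.17 at 6 months. All 5 libraries at 3 months were high in Xist while the WT libraries at 6 months were not, and only 2 WT libraries stand behind the 3-month change.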

How the results depend on the processing

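The calls at 6 months depended on the libraries and on the scaling, and 3 mice a group limit what can be passed. Without scaling, 10002 genes were called (9936 higher, 66 lower), 7699 differed from the 3-month change (7664 higher, 35 lower) and 0 from the 12-month change, 2 ribosomal protein, 0 respiratory chain and 14 plaque-associated genes (higher) were called, App was 0.70 and Ctsd 0.69 (both called) and Tpi1 0.21. Quantile normalisation gave 151 higher genes. With no filter on TPM 85 genes were called (20 higher, 65 lower), 4 of RNA polymerase III and 2 ribosomal, and at a mean TPM of 5 there were 427 (121 and 306), 15 ribosomal and 7 respiratory. The 6-month libraries fitted alone gave 29 (6 and 23), with 1 on each of those 3 lists, and limma without trend or robust variance 149 (36 and 113). Removing the length trend, chosen after seeing the data, gave 79 (21 and 58), with 4 of RNA polymerase III and 4 ribosomal. Leaving out 1 library gave 46 to 265 genes (7 to 42 higher, 35 to 233 lower), 39 to 349 against 3 months (19 to 151 higher, 20 to 198 lower), 0 to 42 against 12 months, 2 to 8 of RNA polymerase III, 1 to 11 ribosomal, 1 to 6 respiratory and 0 to 1 plaque-associated (higher). With the replicate number as a block, 134 genes were called (17 higher, 117 lower), 4 of them of RNA polymerase III. The deviations of same-numbered APP and WT libraries correlated at 0.039, 0.117 and 0.047, and those of unlike number at -0.1 to 0.051. APP replicates 1 and 2 correlated best with their own number, and APP replicate 3 with WT replicate 1 (0.051). These values do not settle whether the numbers mark pairs, and the main fit did not take them as pairs. Of the 247 genes, 33 changed sign without scaling and 0 under the other alternatives. In all 20 alternatives, 2 higher genes (Gm15446 and mt-Tr) and 5 lower ones (Commd5, Gm16418, Gm25776, Rn7sk and Rps12-ps9) kept their call. Many other named calls were fragile when 1 of the 6 libraries was left out. Rmrp, Nnt, Hbb-bs and Pantr1 kept theirs in 2 of those 6 fits. Wdfy1, Gm13301, Gm10600 and Tpi1 did so in 1, and Uqcrq in 0.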

Other observations

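None of 18 tested circadian clock genes passed at 6 months in limma, and 2 had a higher and 1 a lower level in APP at an unadjusted p below 0.05. Dbp, an output transcription factor of the clock, came nearest: it was 14.3, 11.5 and 11.9 in APP and 28.8, 16.2 and 23.4 in WT, a change of -0.79 ± 0.19 (adjusted p = 0.056). Per1, a repressor of the clock, was 22.6, 19.2 and 18.5 in APP and 15.4, 14.2 and 13.9 in WT, a change of 0.44 ± 0.15 (adjusted p = 0.15). In both genes the groups do not overlap, as in 11.2% of all tested genes with APP higher and 10% with APP lower. Both were chosen after their values were seen.

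Of 17 tested nuclear long noncoding RNAs, Pantr1 was the 1 called, where 1.07% of all tested genes were called lower. It was 22.7, 21.1 and 15.1 in APP and 47.9, 34.4 and 29.4 in WT, a change of -0.88 ± 0.21 (adjusted p = 0.049).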
